A study of Mus musculus with 4 samples.

Results

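Naive B cells that carry IgD and CD23 were described in draining lymph nodes of mice given extracellular vesicles (EVs) made by induced pluripotent stem cells (iPSCs). A cell was counted as a member when it held at least 1 unique molecular identifier (UMI, a tag for 1 captured mRNA molecule) of each of Cd79a, Ighd and Fcer2a. It also held no UMI of Cd3d, Cd3e or Cd3g, of Jchain, of Bcar3 or of the cycling genes Mki67, Top2a, Birc5 and Ube2c, and fewer than 2 UMIs in all of Ifit1, Ifit3 and Rsad2. The cells were thus selected on the measured UMIs of these 15 genes, whose values in the members are given as a description with no test. In all, 4221 cells were members, of 32725 cells that passed the filters on quality and of 34323 deposited barcodes. They came to 1045 cells in library Control 1, 809 in Control 2, 1307 in EV 1 and 1060 in EV 2. Between any 2 libraries, 12 to 26 barcodes were shared, and 1 barcode of a member was.

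All 4 libraries came from lymph nodes of wildtype C57BL/6 mice, without enrichment of any cell type, and were prepared with a droplet kit that reads the 3′ ends of mRNAs. The 2 EV libraries came from mice that received 100 µg of iPSC EVs under the skin. The 2 Control libraries are labelled as untreated, whereas the study's methods describe injections of PBS. The sample labels give 24 hours of treatment and the series' design text and the methods give a harvest after 5 days. The age of the mice and whether a library held 1 animal or a pool are not given in the sources used here. The methods call the 2 libraries of a group biological replicates. Libraries held from 50749656 to 70418672 UMIs, and the members alone from 3867074 to 7514895 UMIs. Members of EV libraries held more UMIs per cell, with medians of 5467 and 5201 UMIs per cell beside 3977 and 4584 for Control.

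Naive follicular B cells recirculate through blood and lymph nodes and wait in B cell follicles until their receptor binds antigen. They carry IgM and IgD made by alternative splicing of one transcript, and most mouse B cells pair the heavy chain with a kappa rather than a lambda light chain. CD23, encoded by Fcer2a, is the low-affinity IgE receptor and marks follicular rather than marginal zone B cells.

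The label was first checked against genes that the choice of cells did not read. Ms4a1, which encodes CD20, was found in 92.7%, 94.8%, 96.3% and 96.2% of the members of Control 1, Control 2, EV 1 and EV 2. It was found in 0.781% to 1.80% of T cells (at least 2 UMIs of the CD3 genes and none of Cd79a) of the same libraries. Bank1, an adaptor of B cell receptor signalling, was found in 99.6% to 99.9% of members and in 3.91% to 5.46% of T cells. Both B cell genes thus lay far above the share that free RNA gave in T cells. T cell receptor genes were near the floor: Trac was found in 0.861%, 0.865%, 1.30% and 1.32% of members and in at least 90.4% of T cells. Between 17.5% and 22.3% of the members of a library held a UMI of at least 1 of 10 T cell or myeloid genes, among them Tyrobp (9.76% to 14.7% of members).

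Levels are given in CPM, the UMIs of a gene relative to all UMIs of a library's members, scaled with trimmed mean of M values factors. Levels follow from 3′ counts, so a level is compared between libraries and not between genes. The 3 choosing markers stood at 2442, 2499, 2601 and 2428 CPM for Cd79a and at 1213, 1095, 1060 and 1115 CPM for Ighd in Control 1, Control 2, EV 1 and EV 2. Fcer2a stood at 676, 640, 476 and 524 CPM. Neither Ms4a1 (895, 916, 827 and 836 CPM) nor Bank1 (3504, 3505, 3309 and 4349 CPM) passed the test between EV and Control, with log2 differences of -0.12 and 0.13 and adjusted p of 0.71 and 0.77 (edgeR's quasi-likelihood test with Benjamini-Hochberg adjustment over all 10777 genes tested). Every adjusted p below is from the same test unless another tool is named, adjusted over all genes tested in its own comparison or setting.

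A UMI of Fcer2a is a low bar. Among members, 28.6%, 25.7%, 33.6% and 31.0% held exactly 1 UMI of it. The cells that met every other criterion but held no UMI of Fcer2a numbered 236, 152, 422 and 251. Ms4a1 was at 902, 979, 758 and 855 CPM in these cells just outside and at 893, 919, 775 and 850 CPM in the members with 1 Fcer2a UMI, in the same order of libraries. Bank1 was at 3086, 2930, 2833 and 3923 CPM just outside and at 3154, 3270, 3111 and 4264 CPM just inside, lower outside in each of the 4 libraries. Where Fcer2a was not required, its own level could be tested: 559 and 546 CPM in Control against 366 and 431 CPM in EV, a log2 difference of -0.47 with an SE of 0.13 and an adjusted p of 0.055. The groups did not overlap, but the difference missed the threshold.

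The share of these cells was taken over 2 denominators. Members were 12.8% and 10.3% of all filtered cells in Control 1 and 2 and 16.01% and 12.4% in EV 1 and 2, and these groups overlapped (11.5% ± 1.83 against 14.2% ± 2.53, mean ± SD, n = 2 libraries each, p = 0.67, exact two-sided permutation test). After each cell was thinned to 1000 UMIs the groups of this share no longer overlapped, at 7.23% and 5.86% in Control and 7.79% and 7.75% in EV (p = 0.33, exact permutation test). Of B-lineage cells (Cd79a and no CD3), members were 36.3% and 33.6% in Control and 28.0% and 25.5% in EV, with no overlap (34.97% ± 1.90 against 26.7% ± 1.78, n = 2, p = 0.33, exact two-sided permutation test). With 2 libraries against 2, 0.33 is the smallest p the exact test can give. B-lineage cells as a whole were 32.9% ± 3.44 of filtered cells in Control and 53.02% ± 5.95 in EV. After the same thinning, members were 21.8% and 20.6% of B-lineage cells in Control and 14.5% and 17.2% in EV, and B-lineage cells were 33.1% and 28.5% of filtered cells in Control and 53.9% and 45.1% in EV. The criterion that alone kept out the most B-lineage cells was a UMI of Bcar3, with 1213 and 1077 cells in Control and 1988 and 2095 cells in EV.

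**Figure D1:**
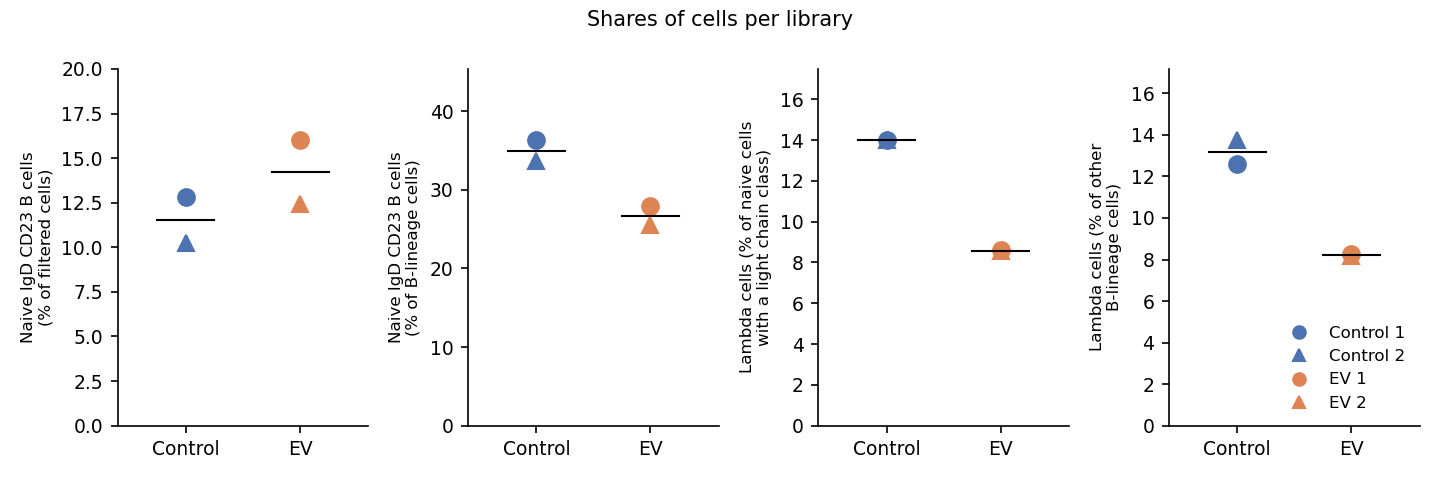
Shares of cells in percent for each of the 4 libraries, with 1 point per library and a bar at each group's mean. Naive IgD CD23 B cells were a larger share of all filtered cells in EV 1 than in any other library, a smaller share of B-lineage cells in both EV libraries, and held a smaller share of lambda cells in both EV libraries (8.60% and 8.56% against 13.99% and 13.98%).

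The balance of kappa and lambda constant region UMIs, which the choice of cells did not read, differed between the groups. Each cell was given the light chain, kappa (Igkc) or lambda (Iglc1, Iglc2 and Iglc3), with more constant region UMIs. Lambda cells were 144 of 1029 classed members in Control 1 (13.99%, 95% exact Clopper-Pearson interval 11.9% to 16.3%) and 112 of 801 in Control 2 (13.98%, 11.7% to 16.6%). They were 112 of 1302 in EV 1 (8.60%, 7.14% to 10.3%) and 90 of 1052 in EV 2 (8.56%, 6.94% to 10.4%). The intervals of the EV libraries lay below those of the Control libraries and cover counting error only. Over libraries the difference (EV minus Control) was -5.41 percentage points (p = 0.33, exact two-sided permutation test, the smallest it can give with n = 2). The other B-lineage cells of the same libraries showed shares of 12.6% and 13.7% in Control and 8.29% and 8.16% in EV.

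Counted over UMIs, lambda took 32.2% and 32.4% of light chain constant region UMIs of members in Control and 23.9% and 24.8% in EV (p = 0.33, exact two-sided permutation test). A UMI of Iglc2 was found in 97.7%, 98.8% and 94.4% of the members of Control 1, Control 2 and EV 1. The T cells of these libraries held it in 2.80%, 2.13% and 4.46%. Most cells classed as kappa thus held lambda UMIs too, so the UMI share is not the share of lambda cells. Whether the level of lambda UMIs in kappa cells entered the classes was not tested. Cells led by Iglc1 were 5.05% and 5.49% of classed members in Control against 3.46% and 4.09% in EV, and cells led by Iglc2 and Iglc3 were 8.94% and 8.11% against 4.92% and 4.37%. As single genes, Iglc1 fell from 660 and 642 CPM to 347 and 421 CPM (log2 -0.76, SE 0.13, adjusted p = 0.0060). Without Control 1 the value of Iglc1 was -0.74 with an adjusted p of 0.076. Iglc2 (1463, 1559, 1110 and 1157 CPM, adjusted p = 0.12) and Iglc3 (1017, 1049, 715 and 775 CPM, adjusted p = 0.066) did not pass. These 2 genes are near-identical copies, so reads may be split between them and their separate values are uncertain. Igkc stood at 6609, 6775, 6917 and 7143 CPM and did not pass (log2 0.071, adjusted p = 0.88). T cells with a UMI of Igkc, a measure of free immunoglobulin RNA, were 8.87% and 8.96% in Control and 21.8% and 20.9% in EV, and the part of free RNA in the light chain difference was not tested. Within cells classed as lambda, the level of Igkc was 2124 and 2146 CPM (Control) and 1750 and 1655 CPM (EV).

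Between EV and Control members, 222 of the 10777 genes tested passed an adjusted p of 0.05. Of these, 137 rose (1.27% of genes tested) and 85 fell (0.789%), and 1509 genes had an unadjusted p under 0.05. The median log2 difference over all genes was -0.0034. In sums over cells, fewer cells with an mRNA and less of it per cell cannot be told apart, so shares of cells are given for some genes. Groups that merely did not overlap were far more frequent, at 22.6% of genes for higher and 23.1% for lower EV levels. The count moved with the libraries used: it was 103 without Control 1, 441 without EV 2 and 1020 without EV 1. Where leaving out a library left 1 sample in a group, that sample was assumed to vary like the others. Depth per cell differed between the groups, so each cell was also thinned to 1000 UMIs, which leaves fewer UMIs to test. Calls that ended after thinning or with DESeq2 are given with the genes. Klf4, Lst1, Kcnk13, Cc2d2b, Creld2, Hist1h4c and Hist1h2ap were not tested after thinning. Called genes such as Il4i1, Pik3ip1, Socs1, Ifngr2 and Hspa1b were not among those followed through the alternatives.

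**Figure D2:**
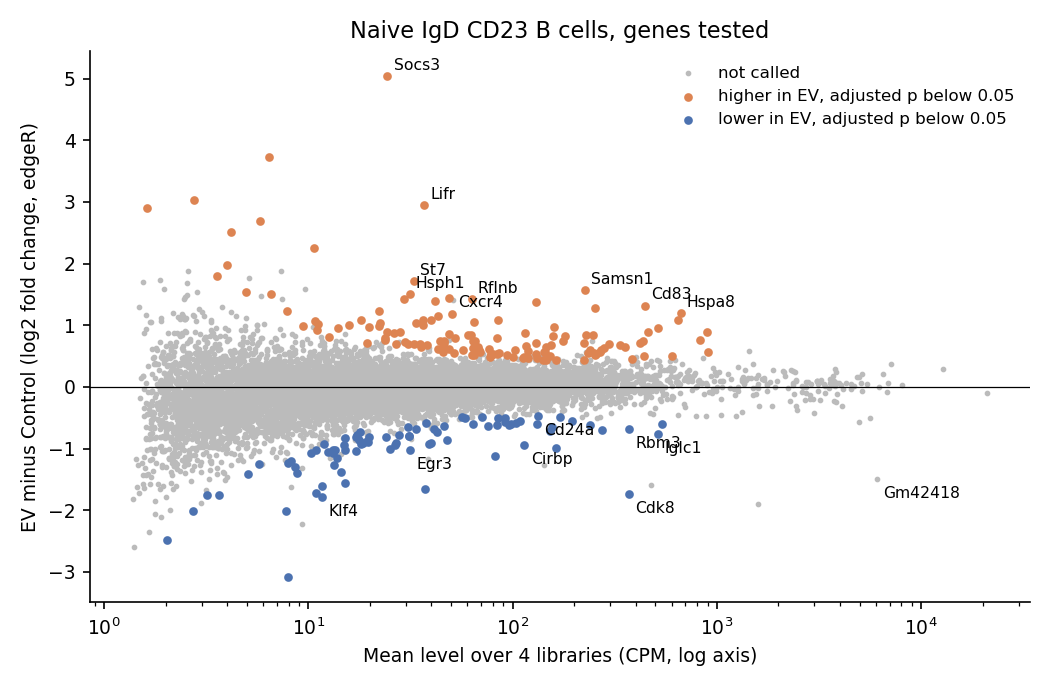
Log2 difference between EV and Control (edgeR) against the mean level in CPM on a log axis, 1 point per tested gene, with called genes in colour. Lifr and Socs3 stand highest among genes above 20 CPM, and Gm42418, at far lower levels in EV 2 than elsewhere, is abundant but not called.

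The firmest rise was in Lifr, the receptor for leukemia inhibitory factor that signals with gp130 through JAK kinases and STAT3 (build GRCm38, chr15:7090614-7197489). Its level was 7.05 and 10.0 CPM in the Control libraries against 59.4 and 71.6 CPM in the EV libraries, a log2 difference of 2.94 (SE 0.19, adjusted p = 4.35e-07). Both EV libraries were high and close to each other. A UMI of Lifr was found in 1.91% and 3.21% of Control members and in 19.0% and 24.6% of EV members. After thinning to 1000 UMIs per cell the shares were 0.574% and 0.618% against 6.12% and 6.98%, and unthinned T cells held it in 0.112% to 0.362%, with median depths of 6446 to 8756 UMIs. Under the 14 alternatives the log2 value of Lifr ranged from 2.71 to 3.22 and the call was kept.

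Socs3, a feedback inhibitor that STAT3 induces, rose from 1.14 and 1.80 CPM to 85.8 CPM in EV 1 and 8.71 CPM in EV 2 (log2 5.05, SE 0.95, adjusted p = 0.0115). EV 1 carried most of this difference, which was 2.57 without it. Stat3 itself rose from 115 and 112 CPM to 239 and 162 CPM (log2 0.82, adjusted p = 0.0096), again highest in EV 1, and was 0.52 without EV 1. The gp130 gene Il6st did not pass (7.502, 10.5, 17.3 and 11.6 CPM, adjusted p = 0.19). It was chosen for its role after its value was seen. Of 31 cytokine and receptor genes tested, 5 rose (Lifr, Socs3, Stat3, Socs1 and the interferon gamma receptor chain Ifngr2), 1 fell and 25 did not pass, with a median of 0.15. Over all tested genes, 1.27% rose and 0.789% fell. The gene that fell was Tnf, the inflammatory cytokine, from 12.96 and 12.6 CPM to 4.74 and 4.96 CPM (log2 -1.40, adjusted p = 0.0092). After thinning, Tnf was at -0.77 with an adjusted p of 0.73.

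The 250 bases upstream of Socs3 (RefSeq, build GRCm38.p6, chr11:117969367-117969616, minus strand, 5′ to 3′) are shown because they hold the STAT-type palindrome TTCNNNGAA, which reads the same on both strands. The capitals mark the match, 154 bases before the start. The motif was chosen after the values were seen. Within 250 bases before and 50 after a start, it occurs in 9.55% of 27025 genes, and in 1 of the 6 called cytokine and receptor genes. The match is a description and no site of binding.
Socs3: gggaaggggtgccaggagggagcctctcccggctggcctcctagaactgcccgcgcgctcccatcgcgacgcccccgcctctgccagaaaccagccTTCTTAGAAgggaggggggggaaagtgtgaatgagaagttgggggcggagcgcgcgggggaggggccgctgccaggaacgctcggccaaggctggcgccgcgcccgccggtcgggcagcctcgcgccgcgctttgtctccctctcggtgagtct

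Chaperones, which fold proteins and are raised by heat shock factor 1, formed the list with the most called genes. Of 38 tested, 13 rose, none fell and 25 did not pass, beside 1.27% of all tested genes that rose and 0.789% that fell. Their median log2 difference was 0.40 beside -0.0034 over all genes, and their summed level was 3946 and 4173 CPM in Control against 5596 and 5818 CPM in EV. Hspa8, the constitutive HSP70 (chr9:40800984-40810087), rose from 385 and 420 CPM to 891 and 961 CPM (log2 1.20, SE 0.13, adjusted p = 9.18e-05). Hsph1, a nucleotide exchange factor for HSP70, rose from 15.9 and 16.5 CPM to 39.1 and 53.7 CPM (log2 1.51, adjusted p = 0.00029). Dnaja1, an HSP40 co-chaperone, rose from 155 and 174 CPM to 300 and 291 CPM (log2 0.84, adjusted p = 0.00093). Ahsa2, a relative of the activator of the HSP90 ATPase, rose from 13.2 and 13.4 CPM to 33.4 and 28.7 CPM (log2 1.23, adjusted p = 0.00099). In each of these 4 genes the groups were apart, with EV higher. The other 9 that rose were Chordc1, Fkbp4, Fkbp5, Hsp90aa1, Hsp90ab1, Hspa1b, Hspd1, Hspe1 and Stip1, with log2 differences of 0.53 to 3.73. The calls of the mitochondrial chaperonins Hspd1 and Hspe1 were lost without Control 1 (0.49 and 0.57) and without Control 2 (0.57 and 0.63). Calls also ended after thinning for Ahsa2 (0.81, adjusted p = 0.58) and Hspe1 (0.46, adjusted p = 0.17), and with DESeq2 for Hspd1 (adjusted p = 0.084).

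The heat shock element core was sought as GAANNTTC or TTCNNGAA, each of which reads the same on both strands, in the windows from 250 bases before to 50 after the start given for 10 of the 13 genes. It was found in 7 of these 10 genes (Chordc1, Dnaja1, Fkbp4, Hspa1b, Hspd1, Hspe1 and Hsph1) and in 17.0% of all 27025 genes with a window. Hsp90aa1, Hsp90ab1 and Hspa8 are named only. The 250 upstream bases of 4 of the 7 are shown so that the spacing of the core can be seen, with the matches in capitals (RefSeq, build GRCm38.p6, 5′ to 3′ on the gene's strand).
Hspe1: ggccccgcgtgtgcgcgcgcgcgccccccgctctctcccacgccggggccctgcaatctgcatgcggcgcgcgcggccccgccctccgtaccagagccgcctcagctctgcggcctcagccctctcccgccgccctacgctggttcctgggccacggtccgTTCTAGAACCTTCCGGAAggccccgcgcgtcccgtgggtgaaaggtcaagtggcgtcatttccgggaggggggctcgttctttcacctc
Dnaja1: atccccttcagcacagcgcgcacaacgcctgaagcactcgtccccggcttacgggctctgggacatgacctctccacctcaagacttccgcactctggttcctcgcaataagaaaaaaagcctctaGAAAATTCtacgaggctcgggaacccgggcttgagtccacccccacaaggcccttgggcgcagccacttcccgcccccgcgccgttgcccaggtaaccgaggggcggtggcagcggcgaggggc
Fkbp4: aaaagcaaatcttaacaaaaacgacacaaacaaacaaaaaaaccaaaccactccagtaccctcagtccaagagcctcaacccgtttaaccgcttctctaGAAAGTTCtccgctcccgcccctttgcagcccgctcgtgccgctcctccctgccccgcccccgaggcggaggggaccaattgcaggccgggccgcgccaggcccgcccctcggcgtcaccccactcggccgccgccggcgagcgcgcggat
Hspa1b: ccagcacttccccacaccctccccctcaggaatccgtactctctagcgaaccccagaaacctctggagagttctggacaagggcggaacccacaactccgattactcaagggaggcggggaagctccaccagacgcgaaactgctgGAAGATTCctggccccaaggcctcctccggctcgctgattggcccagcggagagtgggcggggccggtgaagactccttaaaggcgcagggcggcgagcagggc

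The sequence of Hspe1 (chr1:55087898-55088147, plus strand) holds 3 overlapping matches from 89 to 79 bases before the start. Hspd1 starts on the other strand of the same stretch, so that 1 run of the core serves the windows of both genes and they are not separate cases. Dnaja1 (chr4:40722218-40722467, plus strand) holds 1 match 124 bases before the start, Fkbp4 (chr6:128438657-128438906, minus strand) 1 match at 151 bases and Hspa1b (chr17:34959239-34959488, minus strand) 1 match at 104 bases. Hspa1b, the inducible HSP70, went from 0.23 and 1.54 CPM to 3.66 and 20.2 CPM (log2 3.73, adjusted p = 0.027), which rests on 1, 6, 27 and 118 UMIs in all. EV 2 was far above EV 1 for Hspa1b, and its close copy Hspa1a (1, 2, 10 and 28 UMIs) could share its reads. No factor's binding was measured, and the matches are a description of letters.

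Of 4 cold-inducible genes, Cirbp and Rbm3, both RNA-binding proteins raised by cooling, fell and 2 did not pass, with a median of -0.59. The share of all tested genes that fell was 0.789%. Cirbp fell from 152 and 149 CPM to 88.7 and 67.7 CPM (log2 -0.94, SE 0.13, adjusted p = 0.00093). Rbm3 fell from 459 and 457 CPM to 332 and 238 CPM (log2 -0.68, SE 0.14, adjusted p = 0.019). Both were lowest in EV 2, and Rbm3 lost its call without Control 1 (-0.67, adjusted p = 0.11).

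**Figure D3:**
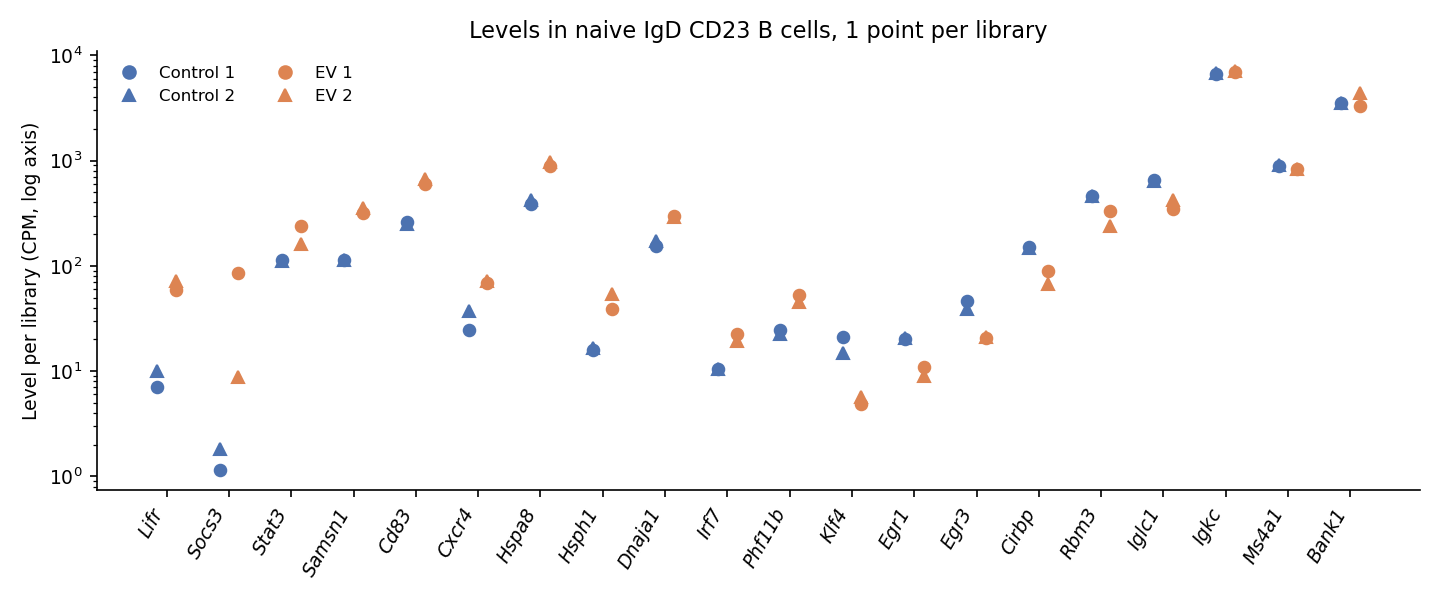
Level of 20 genes in CPM on a log axis, 1 point per library. Lifr, Samsn1, Cd83, Hspa8 and Dnaja1 are high in both EV libraries alike, Socs3 and Stat3 are highest in EV 1, Klf4, Egr1, Egr3, Cirbp, Rbm3 and Iglc1 are lower in EV, and Igkc and Ms4a1 lie close together.

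Genes of B cell activation moved in both directions. Cd83, a surface protein that stabilises MHC class II and is raised early in activation (chr13:43784775-43803132), rose from 261 and 249 CPM to 601 and 670 CPM (log2 1.32, SE 0.12, adjusted p = 2.53e-05). It was found in 52.7% and 55.3% of Control members and in 79.0% and 81.7% of EV members, and after thinning in 18.9% and 20.6% against 37.7% and 41.8%. Batf, an AP-1 family factor used in class switching, rose from 15.5 and 14.4 CPM to 35.3 and 23.4 CPM (log2 0.99, adjusted p = 0.018) and was 0.65 without EV 1. Il4i1 (log2 0.52) and the cyclin gene Ccnd2 (log2 0.90) also rose, though Ccnd2 was 0.46 with an adjusted p of 0.14 without EV 1, 0.0069 after thinning (adjusted p = 0.998), 0.56 where Fcer2a was not required (adjusted p = 0.15), and had an adjusted p of 0.13 with DESeq2. Egr1, Egr3 and Irf4, factors that antigen receptor signals raise, fell. Egr3 went from 46.1 and 38.6 CPM to 20.6 and 21.0 CPM (log2 -1.03, SE 0.15, adjusted p = 0.0017), and Egr1 from 20.0 and 20.6 CPM to 11.0 and 8.89 CPM (log2 -1.02, adjusted p = 0.0105). Irf4 went from 218 and 163 CPM to 135 and 109 CPM (log2 -0.64, adjusted p = 0.025), a call lost without Control 1 (-0.41, adjusted p = 0.50). After thinning, Batf (1.33, adjusted p = 0.10), Egr3 (-0.85, adjusted p = 0.37) and Egr1 (-1.86, adjusted p = 0.17) did not pass, nor did Batf and Egr1 with DESeq2 (adjusted p = 0.059 and 0.080). In all, 4 of 23 tested genes rose, 3 fell and 16 did not pass, and the median was 0.031. Beside this, 1.27% of all tested genes rose and 0.789% fell. The activation markers Cd69 (184, 194, 217 and 238 CPM, adjusted p = 0.27) and Cd86 (105, 123, 194 and 126 CPM, adjusted p = 0.15) did not pass. They were named after their values were seen.

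Among 22 immediate early genes, 5 fell (Klf4, Klf6, Egr1, Fosb and Rgs2), none rose and 17 did not pass, while the list's median was 0.042. Of all tested genes, 0.789% fell. Klf4, a Kruppel-like factor of resting cells (chr4:55527143-55532466), fell from 21.1 and 14.9 CPM to 4.87 and 5.64 CPM (log2 -1.79, SE 0.24, adjusted p = 0.00093). Klf6 fell from 97.8 and 86.5 CPM to 62.6 and 56.0 CPM (log2 -0.63, adjusted p = 0.0103). Fosb fell from 33.4 and 45.8 CPM to 26.7 and 18.5 CPM (log2 -0.79, adjusted p = 0.039). Calls were lost for Klf6 without Control 1 (-0.54, adjusted p = 0.16) and for Fosb without Control 2 (-0.55, adjusted p = 0.17) or without EV 2 (-0.56, adjusted p = 0.056). Jund, the most abundant gene of this list, stood at 735, 592, 770 and 664 CPM. Rgs2, a regulator of G protein signalling that is also in the homing list, fell by 0.58 on the log2 scale (adjusted p = 0.042), but not without either Control library (-0.67 and -0.49, adjusted p = 0.065 and 0.25). After thinning, Klf6 (-0.48, adjusted p = 0.48), Fosb (-0.61, adjusted p = 0.71) and Rgs2 (-0.20, adjusted p = 0.92) did not pass. With DESeq2, Fosb and Rgs2 did not (adjusted p = 0.11 and 0.24). Fosb also missed the threshold where 2 UMIs of Ighd and Fcer2a were required (adjusted p = 0.089), and Rgs2 without members holding T cell or myeloid UMIs (adjusted p = 0.063) and under the other cell filter, which kept cells under 5% mitochondrial UMIs and set no maximum of genes or UMIs (adjusted p = 0.057).

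Of 24 genes of homing and follicle position, Cxcr4 rose, Rgs2 fell and 22 did not pass (median -0.011). As 1.27% of all tested genes rose and 0.789% fell, a single call is not a result about its list. Cxcr4, the receptor for CXCL12, rose from 24.3 and 37.3 CPM to 68.5 and 71.3 CPM (log2 1.19, SE 0.16, adjusted p = 0.00093). The follicle receptor Cxcr5 (186, 159, 155 and 167 CPM) and the lymph node entry receptor Ccr7 (73.4, 72.8, 86.8 and 75.5 CPM) each had an adjusted p of at least 0.59. Of 26 follicular identity genes, Cd24a alone passed (159, 151, 106 and 118 CPM, log2 -0.47, adjusted p = 0.036), with a list median of -0.022, and it lost the call without Control 1 (-0.43, adjusted p = 0.44) or Control 2 (-0.50, adjusted p = 0.14), with DESeq2 (adjusted p = 0.086) and where 2 UMIs of Ighd and Fcer2a were required (-0.42, adjusted p = 0.077). Cd180, a Toll-like relative on B cells, fell from 307 and 270 CPM to 167 and 211 CPM (log2 -0.61, adjusted p = 0.020), and was at -0.51 without Control 1 (adjusted p = 0.32). It was the only one of 22 innate sensing genes that passed.

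The interferon list was described with care, since cells with 2 or more UMIs of Ifit1, Ifit3 and Rsad2 had been left out by the choice of cells, and more B-lineage cells failed that criterion in EV (119 and 120 cells) than in Control (13 and 18 cells). Among the members that remained, 10 of 54 tested genes rose, none fell and 44 did not pass, with a median of 0.41. The share of all tested genes that rose was 1.27%. Groups did not overlap for 41 of the 54 with EV higher, beside 22.6% of all genes. Phf11b rose from 24.6 and 22.4 CPM to 53.2 and 45.8 CPM (log2 1.08, SE 0.15, adjusted p = 0.00096). Irf7, the factor that amplifies type I interferon output, rose from 10.5 and 10.5 CPM to 22.7 and 19.5 CPM (log2 1.01, adjusted p = 0.0103). Oasl1, a regulator of Irf7 translation, rose from 10.0 and 13.1 CPM to 22.1 and 27.0 CPM (log2 1.09, adjusted p = 0.0092), and Herc6, an ISG15 ligase, from 33.0 and 36.3 CPM to 51.0 and 65.1 CPM (log2 0.74, adjusted p = 0.0146). The call of Herc6 was lost without Control 1 (0.68, adjusted p = 0.075). After thinning none of these 4 genes passed, with Phf11b at 0.095 (adjusted p = 0.96), Irf7 at 1.16 (adjusted p = 0.44), Oasl1 at 0.69 (adjusted p = 0.72) and Herc6 at 0.58 (adjusted p = 0.56). Irf7 did not pass with DESeq2 either (adjusted p = 0.086).

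**Figure D4:**
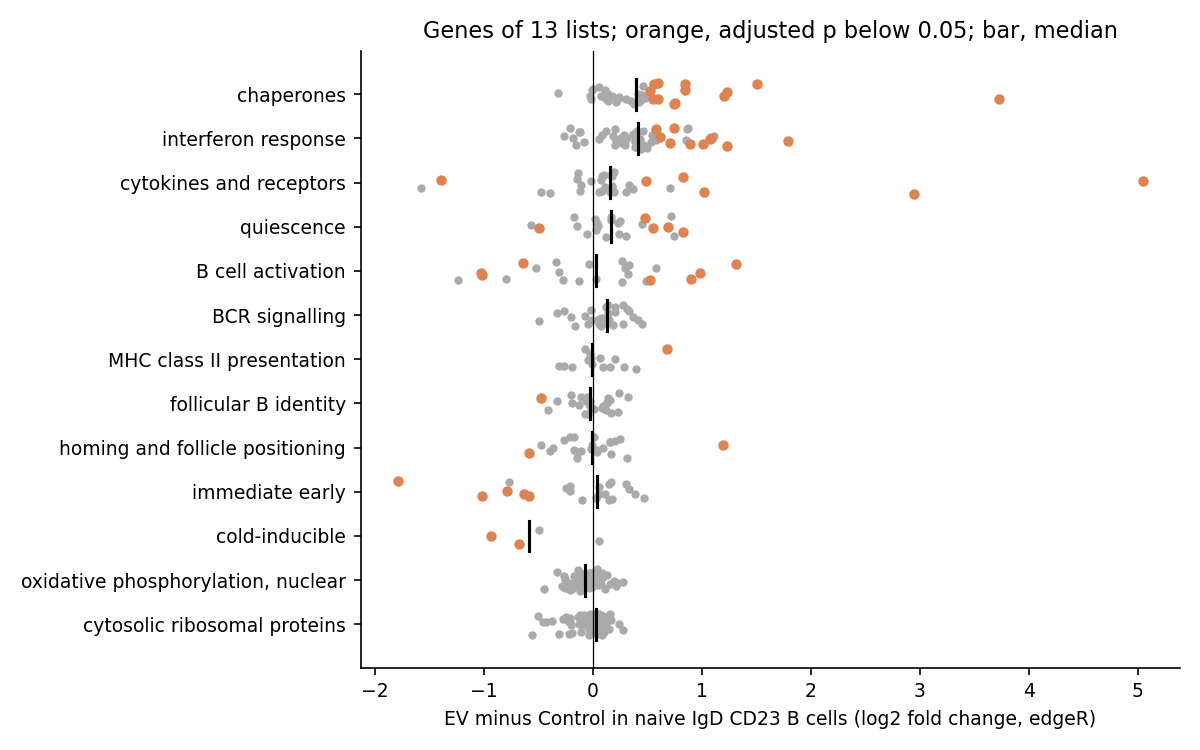
Log2 difference between EV and Control for the tested genes of 13 lists, 1 point per gene, orange where the adjusted p was below 0.05, with a bar at each list's median. Chaperone and interferon genes lie mostly to the right, with medians of 0.40 and 0.41, while ribosomal protein and respiratory chain genes stay near 0.

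Genes of antigen presentation and receptor signalling were taken from 5 lists, of which 3 held 1 call each and 2 held none, beside 1.27% of all tested genes that rose and 0.789% that fell. None of 29 tested genes of B cell receptor signalling passed (median 0.13), and its most abundant members Cd79b (1391, 1391, 1536 and 1524 CPM) and Ptprc (1303, 1368, 1283 and 1491 CPM) had adjusted p of 0.69 and 0.90. Among 14 inhibitory co-receptor genes, Ptpn22, a phosphatase that restrains receptor signals, rose from 33.9 and 43.5 CPM to 71.1 and 61.7 CPM (log2 0.79, adjusted p = 0.0092), and was 0.62 without Control 1 (adjusted p = 0.11). Ifi30, the thiol reductase of antigen processing, was the only one of 15 MHC class II genes that rose, from 243 and 271 CPM to 402 and 422 CPM (log2 0.68, adjusted p = 0.0064). Its value was 0.61 without Control 1, with an adjusted p of 0.27. None of 21 MHC class I genes passed (H2-D1 1027, 982, 1105 and 1040 CPM, H2-K1 948, 893, 1043 and 1070 CPM). Bcl3, an atypical IκB protein, was the only one of 20 BAFF and CD40 genes that passed (27.3, 26.8, 73.9 and 44.8 CPM, log2 1.145, adjusted p = 0.0068), and was 0.73 without EV 1. After thinning, Ptpn22 (0.60, adjusted p = 0.51) and Bcl3 (1.05, adjusted p = 0.097) did not pass.

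Of 23 genes tied to quiescence, 4 rose, 1 fell and 18 did not pass (median 0.17), beside 1.27% of all tested genes that rose and 0.789% that fell. Zfp36l2, an mRNA decay factor, rose from 104 and 158 CPM to 265 and 198 CPM (log2 0.83, adjusted p = 0.016). Slfn2 rose from 218 and 234 CPM to 410 and 321 CPM (log2 0.69, adjusted p = 0.0105), and Klf3 from 94.3 and 95.5 CPM to 122 and 144 CPM (log2 0.48, adjusted p = 0.040). The fourth was Pik3ip1, an inhibitor of PI3 kinase (log2 0.55). Id3, an inhibitor of E proteins, fell from 202 and 195 CPM to 142 and 141 CPM (log2 -0.49, adjusted p = 0.024). Without Control 1, Zfp36l2, Slfn2, Klf3 and Id3 did not pass (0.56, 0.65, 0.48 and -0.46, adjusted p = 0.26, 0.18, 0.36 and 0.37), and without Control 2, Klf3 and Id3 did not (0.50 and -0.51, adjusted p = 0.19 and 0.15). After thinning, Zfp36l2 (0.61, adjusted p = 0.081), Klf3 (0.25, adjusted p = 0.76) and Id3 (-0.48, adjusted p = 0.22) did not pass. With DESeq2, Zfp36l2 and Klf3 did not (adjusted p = 0.49 and 0.11), and Klf3 also missed the threshold where 2 UMIs of Ighd and Fcer2a were required (adjusted p = 0.086).

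Of 31 cell cycle genes outside the choice of cells, the D-type cyclin genes Ccnd2 (above) and Ccnd3 rose. Since 1.27% of all tested genes rose, so few calls are not a result about a list. Ccnd3 stood at 467, 786, 994 and 1340 CPM (log2 0.90, adjusted p = 0.026), but was 0.57 without Control 1 (adjusted p = 0.52). Sesn1 rose among 20 p53 targets (162, 217, 286 and 269 CPM, adjusted p = 0.039) and was 0.36 without Control 1 (adjusted p = 0.74). Creld2, an endoplasmic reticulum stress gene, rose among 25 genes of its list (9.78, 9.26, 18.8 and 18.1 CPM, log2 0.95, adjusted p = 0.0157). With DESeq2, Ccnd3 and Creld2 did not pass (adjusted p = 0.60 and 0.16), nor did Creld2 where 2 UMIs of Ighd and Fcer2a were required (adjusted p = 0.065).

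No gene passed among 64 nuclear genes of oxidative phosphorylation (median -0.067), 79 cytosolic ribosomal protein genes (median 0.029), 18 genes of glycolysis (median 0.12), 30 of cholesterol and lipid metabolism (median -0.11) or 13 of the BCL2 family (median -0.0019). Examples were Atp5e (577, 568, 543 and 499 CPM) and Cox4i1 (463, 524, 520 and 419 CPM), Rps24 (7588, 8354, 8766 and 7499 CPM) and Fau (6801, 7160, 6999 and 6206 CPM), Gapdh (256, 281, 336 and 340 CPM) and Aldoa (177, 170, 175 and 157 CPM). Scd1 stood at 226, 235, 273 and 201 CPM and Abca1 at 136, 153, 141 and 113 CPM. The survival genes Mcl1 (351, 357, 417 and 319 CPM) and Bcl2 (336, 359, 214 and 302 CPM) had adjusted p of 0.89 and 0.15. Bcl2 passed as lower in EV after thinning (log2 -0.62, adjusted p = 0.010) and with the replicate number as a block (-0.45, adjusted p = 0.019). Its log2 value was -0.43 with all libraries, -0.69 without EV 2 and -0.20 without EV 1. Among 38 genes of MYC and ribosome biogenesis the 2 that rose were Hspd1 and Hspe1, which are the chaperonins described above (1.27% of all tested genes rose). Of 19 genes of other B cell states none passed, with Cd38 at 211, 194, 301 and 247 CPM (adjusted p = 0.081) and Vpreb3 at 224, 271, 206 and 227 CPM (adjusted p = 0.50).

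The largest rises above a mean of 10 CPM held genes of no list. Samsn1, an adaptor that restrains B cell activation (chr16:75858793-76022281), rose from 114 and 114 CPM to 321 and 358 CPM (log2 1.57, SE 0.12, adjusted p = 1.96e-06). Rflnb, an actin regulator that binds filamin, rose from 34.8 and 33.7 CPM to 91.4 and 92.1 CPM (log2 1.42, SE 0.12, adjusted p = 9.09e-06). St7 rose from 14.3 and 16.2 CPM to 41.8 and 58.6 CPM (log2 1.71, adjusted p = 0.00012). In these 3 genes the 2 Control libraries were almost equal. The potassium channel gene Kcnk13 (2.73, 4.63, 12.5 and 22.7 CPM, log2 2.25, adjusted p = 0.0026), the calcium channel gene Ryr2 (12.3, 19.6, 28.8 and 56.7 CPM, log2 1.42, adjusted p = 0.0139) and Zfp53 (22.3, 24.2, 73.5 and 47.5 CPM, log2 1.39, adjusted p = 0.00093) also rose. Pde3b, a phosphodiesterase, stood at 76.4, 69.2, 272 and 106 CPM (log2 1.38), and EV 1 carried most of it (0.54 without EV 1). Ryr2 was 0.88 without EV 2. With DESeq2, Ryr2 and Pde3b did not pass (adjusted p = 0.39 and 0.59), and after thinning Ryr2 (1.12, adjusted p = 0.16) and Zfp53 (0.79, adjusted p = 0.31) did not.

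Among the largest falls were histone genes, which cycling cells raise for replication. Hist1h4d stood at 74.3, 39.6, 24.0 and 11.6 CPM (log2 -1.66, adjusted p = 0.0055), Hist1h3e at 28.0, 17.2, 9.61 and 5.47 CPM (log2 -1.56, adjusted p = 0.0060), Hist1h4c at 23.9, 11.3, 5.69 and 5.98 CPM (log2 -1.61) and Hist1h2ap at 25.5, 7.98, 5.69 and 4.44 CPM (log2 -1.73). Control 1 was the highest library for each, and without it Hist1h2ap was -0.64 (adjusted p = 0.77) and Hist1h4c -0.95 (adjusted p = 0.26). Lst1, a leukocyte adaptor, fell from 22.3 and 19.3 CPM to 7.99 and 8.03 CPM (log2 -1.38, adjusted p = 0.0013). Il9r, a cytokine receptor of B cells (20.0, 17.8, 6.50 and 9.40 CPM, log2 -1.27), and Cc2d2b (19.8, 18.3, 9.21 and 7.86 CPM, log2 -1.15) fell too. The mitochondrial transcripts mt-Atp8 (140, 86.5, 65.1 and 38.3 CPM, log2 -1.12) and mt-Nd4l (269, 197, 162 and 157 CPM, log2 -0.55) were the 2 of 13 mitochondrial genes that fell, beside 0.789% of all tested genes. None of the 13 rose, but the list's median was 0.15 and its sum was higher in both EV libraries, at 32348, 32084, 34937 and 38884 CPM, as was the median mitochondrial share of a member's UMIs (3.14%, 3.09%, 3.39% and 3.79%). Without Control 1 the values of mt-Atp8 and mt-Nd4l were -0.73 and -0.30, and mt-Nd4l no longer passed (adjusted p = 0.79). With DESeq2, Hist1h4d (adjusted p = 0.32), Hist1h2ap (adjusted p = 0.61) and mt-Atp8 (adjusted p = 0.52) did not pass, and after thinning Il9r (-1.63, adjusted p = 0.11) and mt-Nd4l (-0.46, adjusted p = 0.27) did not.

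Cdk8, a kinase of the Mediator complex that the study names, stood at 725, 418, 256 and 85.8 CPM (log2 -1.74, SE 0.33, adjusted p = 0.0118), with large gaps between libraries of the same group and values from -2.73 (without EV 1) to -1.16 (without EV 2) with 1 library left out. DESeq2 gave Cdk8 an adjusted p of 0.60, and its paralog Cdk19 (170, 165, 166 and 213 CPM) had an adjusted p of 0.56 in edgeR. Gm42418, a transcript that overlaps ribosomal RNA sequence, stood at 8172.35, 9778, 5553 and 819 CPM (adjusted p = 0.15), also lowest in EV 2 but highest in Control 2. The list of abundant nuclear or rRNA-like transcripts that holds both summed to 39085, 36023, 28556 and 24022 CPM, and its part in the level of Cdk8 was not tested.

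Markers of other cell types in the members were counted beside these results. With all members used, none of 13 tested T cell genes, 9 myeloid genes or 6 NK and innate genes passed, with medians of -0.11, -0.12 and 0.029. The T cell list summed to 303, 303, 269 and 284 CPM, led by Cd2 (181, 176, 167 and 171 CPM), with Lef1 at 21.8, 30.1, 24.6 and 22.4 CPM. The myeloid list summed to 519, 525, 439 and 463 CPM, led by Cst3 (217, 231, 213 and 204 CPM), with Cybb at 206, 168, 149 and 170 CPM, both genes that B cells may express. The NK list summed to 65.5, 174, 73.5 and 75.3 CPM, and Control 2 stood apart in Ccl5 (23.2, 84.1, 23.4 and 23.4 CPM) and in Gzma, a granzyme gene (0.45, 30.4, 3.39 and 2.90 CPM). The Gzma UMIs of Control 2 numbered 118, in 0.371% of its members, and Ncr1, an NK cell receptor gene, had 2, 21, 0 and 2 UMIs in the 4 libraries. Tyrobp was at 35.2, 36.0, 35.3 and 34.3 CPM. Of the erythroid, platelet and stromal list, with 2 genes tested, Hbb-bt was at 3.76 to 7.20 CPM and Pecam1 at 435 to 623 CPM. With the members that held a UMI of any of the 10 T cell or myeloid genes left out, 248 genes were called, 195 of which were among the 222.

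The levels were also taken within subsets of the members. In kappa cells, Lifr was at 7.36 and 10.0 CPM (Control) and 59.2 and 70.9 CPM (EV), here without scaling factors. In lambda cells, with 2 and 5 UMIs in Control and 31 and 39 in EV, Lifr was at 3.28 and 9.25 CPM against 49.7 and 79.7 CPM. Cd83 was 2.43 times as high in EV kappa cells and 2.35 times as high in EV lambda cells as in the Control ones (ratio of mean CPM). Hspa8 gave ratios of 2.27 and 2.16. By Fcer2a, Samsn1 was 2.45 times as high in EV among members with 1 UMI of Fcer2a and 3.14 times as high among those with 2 or more, and Lifr 7.62 and 7.64 times. These ratios are a description with no test.

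The EV effect in these cells was compared with that in other classes of cells of the same libraries, as a difference of effects. The other B-lineage class was close in kind to the members. It numbered 1833, 1597, 3365 and 3103 cells in Control 1, Control 2, EV 1 and EV 2. Of these, 1213, 1077, 1988 and 2095 were kept out by Bcar3 alone, and 93.5% to 96.2% of the class held Ighd. Few differences between classes so alike cannot show whether the response was particular to the members. Against the 9898 other B-lineage cells, 36 of 12002 genes differed (0.3%), 8 with a higher and 28 with a lower effect in naive cells, and 711 had an unadjusted p under 0.05. In other B-lineage cells Lifr went from 6.97 and 6.50 CPM to 44.9 and 54.5 CPM, and the difference of effects, naive minus other, was 0.079 (SE 0.24, adjusted p = 0.998). For Hspa8 it was -0.0084 (SE 0.044, adjusted p = 0.998) and for Cd83 0.20 (SE 0.051, adjusted p = 0.051). Among called genes with a mean of at least 10 CPM in the members, whose library values of this difference did not overlap between the groups, the largest differences were in Ccl5, a chemokine of T and NK cells (difference of log2 effects -3.13, adjusted p = 2.37e-31), Lyz2, the lysozyme of myeloid cells (-1.76, adjusted p = 1.74e-07), and Lst1 (-0.92, adjusted p = 0.017). Lyz2 was at 10.5, 39.4, 16.3 and 12.2 CPM in naive cells and at 45.5, 27.3, 89.9 and 54.4 CPM in other B-lineage cells, and without Control 2 its difference was -0.24 (adjusted p = 0.93). Gfod1 (-0.89) and Nr6a1 (-0.83) also had a lower effect in naive cells, and Agbl1 (0.68), Apoe (0.40) and Ripor2 (0.17) a higher one. Each of these calls was lost when 1 library was left out: Lst1 without Control 1 (-0.78), EV 1 (-0.99) or EV 2 (-0.86), Gfod1 without Control 1 (-0.93), Control 2 (-0.87) or EV 1 (-0.45), and Nr6a1 without Control 1 (-0.82), Control 2 (-0.84) or EV 1 (-0.70). Agbl1 lost it without Control 2 (0.59) or EV 2 (0.39), Apoe without Control 2 (0.22) or EV 1 (0.23), and Ripor2 without EV 2 (0.14). Lyz2 was at -2.88 without Control 1. Where 2 UMIs of Ighd and Fcer2a were required, none of these 8 genes passed (adjusted p of 0.068 to 0.97). Lyz2 and Agbl1 also missed the threshold where Fcer2a was not required (adjusted p = 0.060 and 0.37), and Gfod1, Agbl1 and Apoe under the other cell filter (adjusted p = 0.069, 0.20 and 0.093).

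With cells that held a T cell or myeloid UMI left out of both classes (3398 naive and 7627 other B-lineage cells remained), 1 of these 36 calls was left, Iglc1, and the difference for Ccl5 was -1.46 (adjusted p = 0.52). This setting was chosen after seeing the data. Where such cells were only moved from the members to the other B-lineage class, 2 calls were left, Ccl5 (-3.57, adjusted p = 1.12e-06) and Iglc1. With every cell thinned to 1000 UMIs none was (453 genes had an unadjusted p under 0.05, edgeR). Iglc1 was named after its value was seen. Its EV effect was -0.76 in naive cells and -0.56 in other B-lineage cells, a difference of -0.19 (SE 0.047, adjusted p = 0.038), which was -0.32 with such cells left out of both classes (adjusted p = 0.0065).

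**Figure D5:**
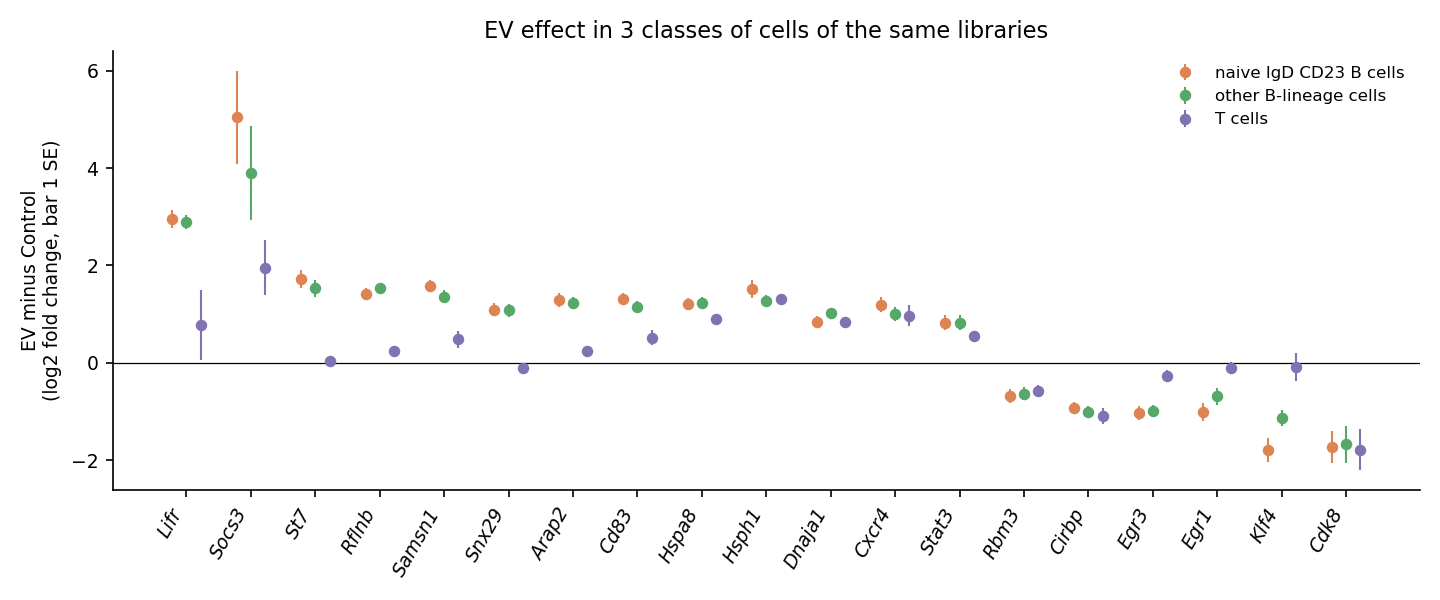
Log2 difference between EV and Control, with a bar of 1 SE, for 19 genes in naive IgD CD23 B cells, other B-lineage cells and T cells of the same 4 libraries. Naive and other B-lineage cells lie together for Lifr and Hspa8. Samsn1 and Cd83 are raised in both, with higher points in naive cells but no called difference of effects. St7, Rflnb, Snx29 and Arap2 are raised in both B cell classes. In T cells, St7 (0.032) and Snx29 (-0.12) are near 0, and Rflnb (0.23) and Arap2 are raised less than in B cells. Rbm3, Cirbp and Cdk8 are lower in all 3 classes of cells.

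Against the 14952 T cells, 105 of 13819 genes differed (0.76%), 78 with a higher and 27 with a lower effect in naive B cells, and 1280 had an unadjusted p under 0.05. St7 was level in T cells, at 35.5, 37.1, 36.5 and 37.6 CPM, and its log2 effect was 1.71 higher in naive cells (SE 0.18, adjusted p = 9.91e-05). Snx29, a sorting nexin, went from 395 and 401 CPM to 759 and 973 CPM in naive cells and stood at 52.2, 52.9, 45.9 and 50.7 CPM in T cells (difference 1.24, SE 0.073, adjusted p = 2.01e-07). Rflnb differed by 1.23 (SE 0.10, adjusted p = 9.93e-06). The effect on Socs3 was 2.996 higher in naive cells (SE 0.44, adjusted p = 0.0021), while T cells held 14.2, 15.5, 96.7 and 19.7 CPM of it, with EV 1 the highest there too. Hist1h1b, a linker histone gene, stood at 46.4, 33.0, 30.0 and 14.4 CPM in naive cells and at 21.2, 7.502, 1.18 and 1.55 CPM in T cells (difference 2.41, adjusted p = 0.0026). Cells with UMIs of the cycling genes had been left out of the members but not of the T cells, and the part of this in Hist1h1b was not tested. Under the other cell filter Hist1h1b was called in the opposite direction (-0.70, adjusted p = 0.0083).

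Lower effects in naive cells than in T cells were led by Maf, a transcription factor of helper T cells (-0.99, adjusted p = 0.029), Igkc (-0.93, adjusted p = 3.42e-07), Egr1 (-0.89, adjusted p = 0.021), Irf4 (-0.80, adjusted p = 0.0083) and the interferon gamma receptor gene Ifngr1 (-0.78, adjusted p = 0.0148). In T cells Egr1 stood at 23.7, 25.9, 26.0 and 19.9 CPM, whereas in naive cells it was at 19.2, 19.9, 10.8 and 8.84 CPM on the scale of this comparison. Ifngr1 was level in naive cells (68.0, 71.5, 67.6 and 61.7 CPM) and stood at 106, 108, 215 and 128 CPM in T cells, a difference of -0.43 without EV 1 (adjusted p = 0.058). Other calls lost were Maf without Control 1 (-0.87) or EV 1 (-0.80), Egr1 without Control 1 (-0.85), Control 2 (-0.92) or EV 1 (-0.83), and Irf4 without Control 1 (-0.57). Where 2 UMIs of Ighd and Fcer2a were required, Maf (-0.89, adjusted p = 0.19) and Ifngr1 (-0.70, adjusted p = 0.11) did not pass, nor did Maf without members holding T cell or myeloid UMIs (-0.90, adjusted p = 0.066). After thinning, Maf (-0.95), Egr1 (-1.86), Irf4 (-0.99), Ifngr1 (-0.90), Hist1h1b (2.56) and Rflnb (1.05) did not pass, with adjusted p of 0.88, 0.30, 0.22, 0.072, 0.082 and 0.078. Igkc, which T cells do not make, was at 14.6, 14.7, 31.0 and 29.0 CPM in T cells and at 6358, 6538, 6780 and 7105 CPM in naive cells on this scale. Among chaperones, the EV effect on Hsph1 differed by 0.24 between naive and T cells (SE 0.16, adjusted p = 0.73) and Dnaja1 by 0.048 (SE 0.069, adjusted p = 0.91), while Hspa8 was 0.34 higher in naive cells (SE 0.052, adjusted p = 0.0029). For Lifr the difference of 2.25 missed the threshold (SE 0.71, adjusted p = 0.24), at T cell levels of 0.39, 0.33, 1.14 and 0.18 CPM.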

How the data were processed

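Single-cell libraries of 2 Control and 2 EV samples were analysed. The authors made the deposited UMI counts with Cell Ranger 7.1.0 against mm10 (submitters' processing notes), and how intronic reads were counted and the release of the annotation are not given in the sources used here. The files hold raw UMI counts of 32285 genes per barcode, with no normalization.

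Cells with 200 to 5000 genes, at most 20000 UMIs and under 10% mitochondrial UMIs were kept. No doublet caller was run, and the CD3 criterion removed B and T cell doublets that held CD3 UMIs. Counts were summed per library and class of cells and tested with edgeR 4.0.16 (R 4.3.3, limma 3.58.1), using filterByExpr, TMM factors, the quasi-likelihood test and Benjamini-Hochberg adjustment at 0.05. Differences of effects were tested as interactions with the library as a block. Shares were compared with exact permutation tests (scipy 1.17.1). DESeq2 1.42.0 was an alternative. Depth was 50749656 to 70418672 UMIs per library.

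In data simulated for the comparison of naive cells (10746 genes), 46% of 1.5-fold and 98% of 2-fold changes were recovered. The simulation gave all genes the same spread between libraries and changed only genes of at least 10 CPM. Genes that vary more between libraries, as Socs3 and Cdk8 did, were not represented, so these shares do not hold for them. The members and gene lists were chosen with earlier results of these data known. Named genes were the label's markers, the 10 largest changes in each direction among called genes with groups apart and a mean of at least 10 CPM (without predicted gene models and immunoglobulin segments), up to 4 called genes per list with the smallest adjusted p or, where none was called, its 2 most abundant, the 5 largest differences in each direction between classes under the same filters, and Cdk8 and Cdk19. Other genes are named for their role, after their values were seen. The label's "Control" and time conflicts are given in the report. Promoters came from RefSeq (GRCm38.p6), and gene positions from GENCODE, which matched 10772 of 10781 genes. Replicate numbers were not shown to pair libraries.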

Additional observations from a re-analysis of the deposited data

Results flagged for a closer look

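The EV effect differed between naive IgD CD23 B cells and the other B-lineage cells of the same libraries for 8 named genes, by edgeR's interaction test with Benjamini-Hochberg adjustment. The differences of log2 effects, naive minus other, were -3.13 for Ccl5, -1.76 for Lyz2, -0.92 for Lst1, -0.89 for Gfod1, -0.83 for Nr6a1, 0.68 for Agbl1, 0.40 for Apoe and 0.17 for Ripor2. Ccl5 and Lyz2 were highest among naive cells in Control 2 (84.8 and 39.4 CPM). None of these 8 calls was kept after thinning, or where 2 UMIs of Ighd and Fcer2a were required. Nor was any kept with cells holding T cell or myeloid UMIs left out of both classes. After thinning, the values of Ccl5, Lst1, Nr6a1 and Ripor2 turned direction.

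Between naive B cells and T cells the difference was tested in the same way. It was -0.99 for Maf, -0.93 for Igkc, -0.89 for Egr1, -0.80 for Irf4 and -0.78 for Ifngr1, and 3.0 for Socs3, 2.41 for Hist1h1b (-0.70, adjusted p = 0.0083, under the other cell filter), 1.71 for St7, 1.24 for Snx29 and 1.23 for Rflnb. No cause of any of these differences was tested.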

How the results depend on the processing

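With 2 libraries a group, the exact test of a share cannot pass a threshold, and the edgeR counts of called genes moved with the libraries used. Genes called between EV and Control members numbered 222, 508 without the expression filter, 96 after thinning to 1000 UMIs, 112 with DESeq2 (101 shared with the 222), and 525 with the replicate block (222 shared). Same-numbered libraries were not shown to be pairs (r = 0.035 over 2 pairs). With 1 library left out the count ran from 103 to 1020. Against other B-lineage cells the count of 36 went to 0 after thinning, 11 with at least 2 UMIs of Ighd and Fcer2a, 2 where members holding T cell or myeloid UMIs were moved to the other class, 1 where such cells were left out of both (chosen after seeing the data) and 128 under the other cell filter, and ran from 27 to 32 with 1 library left out. Against T cells the count of 105 went to 244 without the expression filter, 37 after thinning and 210 under the other cell filter, and ran from 60 to 224. Of 57 called named genes, all kept their direction under every alternative that could test them, 18 lost the call with DESeq2, 23 after thinning and 21 without Control 1.

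The differences in share ran from 0.884 to 4.47 percentage points of filtered cells, from -9.59 to -6.91 of B-lineage cells and from -8.42 to -7.53 for lambda UMIs with 1 library left out. Of 27 named genes not called, 3 passed with the replicate block and 2 without the expression filter. After thinning 1 passed, as did 1 where Fcer2a was not required and 1 without members holding T cell or myeloid UMIs. Abca1 was -0.35 without EV 1 and -0.029 without EV 2. Directions turned for these log2 values, with causes not tested. After thinning, Aldoa was 0.14, Cox4i1 0.086, H2-D1 -0.039 and Scd1 -0.29, and the differences from other B-lineage cells were 0.43 for Ccl5, 0.72 for Lst1, 0.098 for Nr6a1 and -0.040 for Ripor2. With at least 2 UMIs of Ighd and Fcer2a, Lef1 was 0.0091, Scd1 -0.046 and Tyrobp 0.25, and Tyrobp was 0.0096 without the expression filter. Hist1h1b against T cells was -0.70 (adjusted p = 0.0083) under the other cell filter. With 1 library left out, Aldoa ran from -0.14 to 0.011, Bank1 from -0.080 to 0.32, Ccl5 from -1.84 to 0.020, Cdk19 from -0.0087 to 0.35, Cox4i1 from -0.23 to 0.079, Fau from -0.16 to 0.0070, Lef1 from -0.35 to 0.12, Mcl1 from -0.14 to 0.24, Pecam1 from -0.23 to 0.29, Ptprc from -0.054 to 0.17, Rps24 from -0.081 to 0.14 and Scd1 from -0.19 to 0.24.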
